A study of Homo sapiens with 19 samples.

Results

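A nuclear wash stands between the cytoplasm and the nucleus when cells are taken apart, and its RNA could be no more than a blend of the RNA of both. The results below are the genes whose level in the wash of K562 cells departed from the best such blend. K562 is an established human erythroleukaemia line that makes fetal and embryonic globins, and all cells here were untreated. RNA was sequenced as total RNA after removal of ribosomal RNA from whole cells, cytoplasm, nuclear wash and nucleus, with 4 libraries each, and from the same kind of wash without that removal in 3 libraries. The blend was built from 12 of the 19 libraries, the 4 depleted washes, the 4 cytoplasms and the 4 nuclei. The labels do not say how the fractions were separated, what the wash removed, or whether each replicate was a culture of its own, so the p-values below reflect library-to-library spread only, and that spread may be technical. Of 58051 human genes in the exon count table, 584 mitochondrial and ribosomal RNA genes were left out, and 15078 of the other 57467 had enough counts to be tested.

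As background, messenger RNAs that encode secreted, lysosomal and membrane proteins are translated by ribosomes docked on the endoplasmic reticulum (ER). The ER membrane continues into the outer membrane of the nuclear envelope, so it borders both the cytoplasm and the nucleus. Most proteins of the cytosol, the nucleus and the mitochondrial matrix are made on ribosomes not docked on the ER. Tail-anchored proteins, which hold on to a membrane by their last segment, are inserted after their translation has ended.

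The blend was fitted on group means of CPM, counts brought to a common library size by the TMM method, as weight times cytoplasm plus weight times nucleus. Both weights had to be at least 0, and the squared difference of log2(CPM + 1) over all tested genes was made as small as possible. The best weights were 0.807 for the cytoplasm and 0.155 for the nucleus, which is a nuclear share of 16.1%. Fitted to each wash library on its own, the nuclear share was 18.9% and 21.9% in replicates 1 and 2 and 11.4% and 10.7% in replicates 3 and 4. Replicates 1 and 2 carry the prefix 1 in the names of their count columns and replicates 3 and 4 the prefix 2, a split that the labels do not explain. Both libraries of prefix 1 lay above both of prefix 2. The share also moved with the criterion of the fit, to 28.9% with a Poisson likelihood, while linear least squares on CPM gave 16.9%. The wash held 2406430 to 5510550 exon counts of the genes under study per library, the cytoplasm 4346455 to 5994336 and the nucleus 1268409 to 2455285. Intronic counts, the part of gene-body counts outside exons, made up 24.7 to 31.4% of the wash, 14.8 to 17.3% of the cytoplasm and 70.0 to 74.2% of the nucleus. Mitochondrial and ribosomal RNA genes took 23.1 to 32.5% of the human exon counts of the wash, 21.8 to 27.3% of the cytoplasm and 6.25 to 11.9% of the nucleus.

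A residual is the log2 ratio of the wash to the fitted mixture, so it says which RNAs the wash held in excess or in deficit relative to the typical gene, and nothing about amounts of RNA. Residuals had an SD of 0.533 over the 15078 genes, against 0.662 with the cytoplasm alone and 1.20 with the nucleus alone as the reference. The SD between wash libraries averaged 0.314 per gene. By edgeR's quasi-likelihood test with Benjamini-Hochberg adjustment over all tested genes, 2489 genes (16.5%) lay above the mixture and 2570 (17%) below it at an adjusted p under 0.05. Of these, 953 lay at least 2-fold above and 416 at least 2-fold below. The median residual of all tested genes was -0.07. For a comparison with each fraction, the mean wash level was divided by the sum of the weights, 0.962. Genes above the mixture mostly exceeded both fractions, with 1954 of 2489 higher than cytoplasm and nucleus alike, where 24.0% of all tested genes did so. Calls above select for a high wash level, so part of that difference follows from the selection. Fewer of those below did the reverse, with 832 of 2570 lower than both, where 14.3% of all tested genes were. In 2272 tested genes (15.1%) the 4 wash values lay above all 4 mixture values made from same-numbered cytoplasm and nucleus libraries, and in 2497 (16.6%) they lay below. With the Poisson fit, 1905 genes were above and 4841 below, so the share of calls that were above went from 49.2% to 28.2%, and the median of all tested genes went to -0.26.

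**Figure D1:**
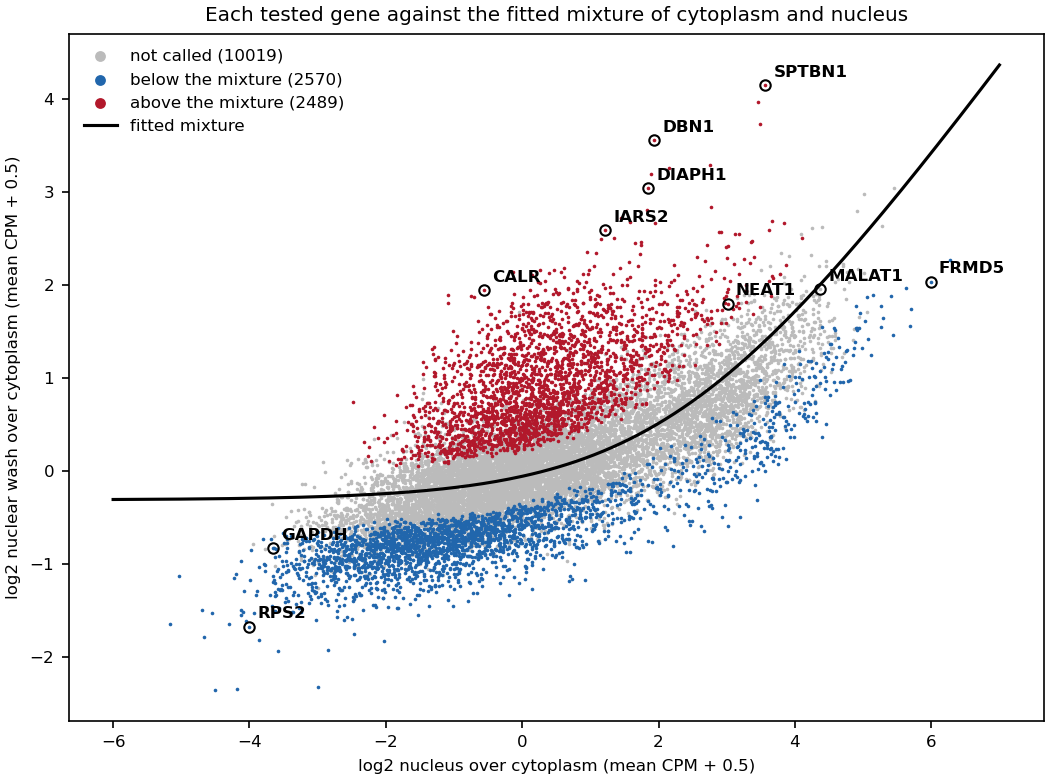
Each of the 15078 tested genes by its log2 ratio of nucleus to cytoplasm and its log2 ratio of nuclear wash to cytoplasm, from mean CPM with 0.5 added. The line is the fitted mixture; the 2489 genes called above it (red) crowd where both fractions hold similar levels, and the 2570 called below (blue) run under the curve along its whole length.

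The ER lumen supplied the most uniform group above the mixture. Of 41 tested chaperones and folding enzymes of the lumen, 38 were above and none below, with a median residual of 1.32 against -0.07 for all tested genes. Their summed level was 21473 CPM in the wash against 6413 in the mixture. CALR (ENSG00000179218, chromosome 19, 12938578 to 12944489 of GRCh38), which encodes the calcium-binding lectin chaperone calreticulin, stood at 3678, 2926, 3636 and 3125 CPM in wash replicates 1 to 4 and at 812, 903, 667 and 771 in the mixture of the same replicates. All 4 wash libraries were clear of the mixture, 4.24-fold on the fitted means (log2 2.08 ± 0.13 SE, edgeR adjusted p = 3.21e-09). The same holds, in one direction or the other, for every gene given below with 4 wash and 4 mixture values, except where an overlap is stated. HSPA5 (chromosome 9, 125234853 to 125241330 of GRCh38), the main Hsp70 chaperone of the lumen, was read at 1759, 1267, 1785 and 1698 CPM in the wash against 339, 340.0, 421 and 496 (log2 2.03 ± 0.16 SE, edgeR adjusted p = 4.22e-08). PDIA4, a protein disulfide isomerase, showed the same separation, with 859, 693, 788 and 713 CPM against 182, 200.3, 164 and 188 (log2 2.06 ± 0.11 SE, edgeR adjusted p = 1.93e-09). Next in order of residual were HYOU1 (2.04), OS9 (1.95), PDIA3 (1.92), CANX (1.89) and HSP90B1 (1.85), all called above. The 3 members that were not called were TXNDC5 at 0.44, EDEM2 at 0.32 and UGGT2 at 0.28.

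The machinery that moves and modifies proteins at the ER membrane held members on both sides of the mixture. Of 41 tested subunits of the translocon, the oligosaccharyltransferase, the signal peptidase and the membrane insertase EMC, 26 were above and 3 below (5 with the replicate number as a block), with a median of 0.63. Among the 8 members whose span overlaps no other gene, 3 were above and 2 below with a median of 0.01. STT3A, the catalytic subunit of the oligosaccharyltransferase, was counted at 549, 557, 579 and 476 CPM in the wash and 152, 163, 148 and 162 in the mixture (log2 1.79 ± 0.11 SE, edgeR adjusted p = 3.21e-09). MAGT1, a subunit of the second form of that enzyme, had 127, 142, 150.4 and 134 CPM against 38.9, 41.6, 36.3 and 39.2 (log2 1.83 ± 0.11 SE, edgeR adjusted p = 3.21e-09). The other large subunits RPN2 (1.71), DDOST (1.63), RPN1 (1.54) and SEC61A1 (1.33) were above as well. The very short subunits of the same complexes were not: SEC61B (-0.45), SEC61G (-0.46) and DAD1 (-0.21) were not called, and OST4 (-0.65) was below. The other members below were EMC2, an EMC subunit on the cytosolic side, and CAMLG, a receptor for tail-anchored proteins. EMC2 was at 28.5, 40.1, 28.2 and 28.2 CPM in the wash against 52.6, 51.1, 48.7 and 54.7 (log2 -0.72 ± 0.18 SE, edgeR adjusted p = 0.00479).

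Glycan and lipid enzymes of the ER were above in most cases. Among 51 tested enzymes that build GPI anchors or build or trim glycans, 33 were above and 2 below, with a median of 0.77 that was 0.35 on gene-body counts. GANAB, the catalytic subunit of glucosidase II, was at 388, 434, 516 and 533 CPM against 130.4, 135, 156 and 137 (log2 1.75 ± 0.16 SE, edgeR adjusted p = 2.09e-07), and ALG10, a glucosyltransferase with many membrane spans, at 56.0, 80.7, 72.0 and 50.2 against 19.7, 16.7, 19.7 and 22.8 (log2 1.72 ± 0.17 SE, edgeR adjusted p = 4.67e-07). PIGA, which starts GPI-anchor synthesis and keeps its catalytic part in the cytosol, was below at 21.5, 34.2, 28.02 and 29.5 against 39.8, 40.2, 42.1 and 38.4 (log2 -0.48 ± 0.13 SE, edgeR adjusted p = 0.00885), a call that libraries of prefix 1 alone did not give. Of 42 tested enzymes and regulators of cholesterol and lipid synthesis, 30 were above and 0 below, with a median of 0.59. SOAT1, which esterifies cholesterol, had 157, 172, 169 and 144 CPM in the wash and 58.7, 57.1, 47.0 and 51.4 in the mixture (log2 1.58 ± 0.13 SE, edgeR adjusted p = 5.51e-08), so the lowest wash library exceeded the highest mixture value.

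Proteins that pass through the ER to other destinations were above the mixture as well. Of 46 tested lysosomal proteins, 40 were above and 1 below, with a median of 1.32. LAMP2, a membrane glycoprotein of the lysosome, was at 261, 338, 375 and 305 CPM in the wash and 65.8, 80.0, 63.8 and 78.3 in the mixture (log2 2.15 ± 0.14 SE, edgeR adjusted p = 5.83e-09). The 1 member below was the sulfatase IDS, at 13.5, 11.98, 14.7 and 14.1 CPM against 20.8, 22.6, 19.3 and 21.4 (log2 -0.64 ± 0.17 SE, edgeR adjusted p = 0.00882), which was not called in the libraries of prefix 2 alone and whose span overlaps another gene. Of 63 tested plasma membrane receptors and adhesion proteins, 56 were above and 1 below, with a median of 1.24. APLP2, a relative of the amyloid precursor protein, had 1919, 1365, 1639.6 and 1451 CPM against 359.8, 392, 340.0 and 365 (log2 2.13 ± 0.12 SE, edgeR adjusted p = 2.43e-09). The receptor CD44 (1.77) was far scarcer, with a mean of 8.39 CPM in the wash and 2.44 in the mixture. NOTCH2 (2.09) and ITGB3 (1.87) had larger residuals than CD44 but did not meet the rule for full values, a call at 5 CPM or more. TFRC, the transferrin receptor that supplies iron to erythroid cells, was at 1898, 2264, 1297 and 1131 in the wash and 847, 834, 546 and 509 in the mixture (log2 1.27 ± 0.20 SE, edgeR adjusted p = 0.000131); each wash library exceeded its own mixture value and the lowest wash value the highest mixture value. GYPC, a short red-cell glycophorin, was the 1 member below, at 126, 97.4, 159.7 and 159 CPM against 208, 191, 241 and 255 (log2 -0.72 ± 0.16 SE, edgeR adjusted p = 0.00239).

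Among 22 tested secreted and matrix proteins, 18 were above and 0 below, with a median of 1.34. THBS1, the matrix protein thrombospondin 1, was low in every fraction, with 9.80, 10.2, 10.1 and 14.4 CPM in the wash and 1.23, 1.96, 2.26 and 1.86 in the mixture (log2 2.56 ± 0.24 SE, edgeR adjusted p = 3.97e-07). COL1A2, a collagen chain, stood at 32.2, 43.8, 30.4 and 32.3 CPM against 5.27, 8.13, 6.22 and 8.13 (log2 2.31 ± 0.18 SE, edgeR adjusted p = 5.81e-08). Of 173 tested solute carriers outside the mitochondrial SLC25 family, 97 were above and 9 below, with a median of 0.63. The glucose transporter SLC2A3 was at 478, 629, 848 and 758 CPM against 147, 169, 187 and 198 (log2 1.95 ± 0.16 SE, edgeR adjusted p = 6.17e-08). Its near-identical neighbour SLC2A14, at 11.2, 9.63, 20.7 and 16.6 against 2.29, 2.38, 4.38 and 2.88 (log2 2.27 ± 0.28 SE, edgeR adjusted p = 7.89e-06), may have received part of the same reads. SLC36A4, an amino acid transporter, was below at 5.599, 8.45, 6.90 and 7.31 CPM against 17.6, 14.5, 15.6 and 15.2 (log2 -1.12 ± 0.19 SE, edgeR adjusted p = 0.000192).

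Coats and tethers of vesicles gave a mixed list. Of 50 tested, 22 were above and 6 below, with a median of 0.25. The 44% above were over the 16.5% of all tested genes, and the 12% below were under their 17%. Cargo receptors that cross the membrane led those above. LMAN1, a lectin that carries glycoproteins out of the ER, was at 1112, 872, 672 and 594 CPM against 249.6, 265, 239 and 269.8 (log2 1.67 ± 0.16 SE, edgeR adjusted p = 5.02e-07) and TMED9, a member of the p24 family, at 233, 165, 323 and 296 against 90.2, 104, 97.2 and 92.1 (log2 1.41 ± 0.16 SE, edgeR adjusted p = 3.76e-06). Small cytosolic coat subunits such as COPE (-0.61), COPZ1 (-0.58) and CLTB (-0.49) were below. The largest deficit was in GOLGA4, a Golgi tether, with 199.7, 117, 44.8 and 49.7 CPM in the wash against 275, 244, 175 and 227 (log2 -1.19 ± 0.33 SE, edgeR adjusted p = 0.00995). Its wash replicate 1 lay inside the range of the mixture values, while both replicates of prefix 2 lay far under them.

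**Figure D2:**
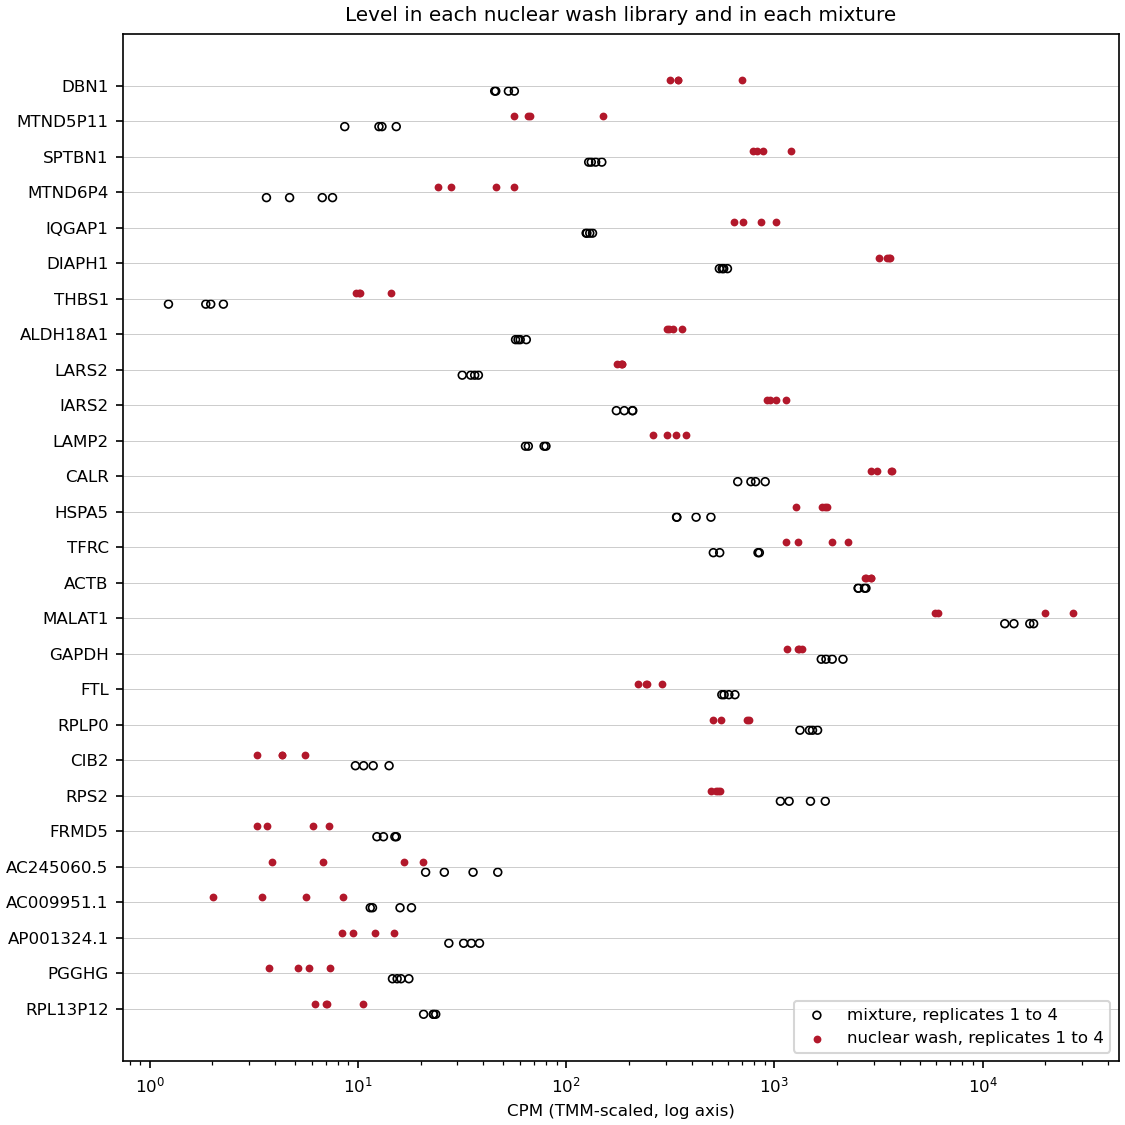
CPM on a log axis in each of the 4 nuclear wash libraries (filled) and in the 4 mixtures of same-numbered cytoplasm and nucleus libraries (open), for the 8 largest residuals above, selected landmarks and the 8 largest residuals below. The genes from DBN1 to TFRC have every wash value to the right of every mixture value, ACTB and MALAT1 overlap, and from GAPDH downward every wash value is to the left.

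At the nuclear envelope, the largest residuals were those of integral membrane proteins. Of 19 tested lamina and inner nuclear membrane proteins, 14 were above and 1 below (2 with the block), with a median of 0.58. TMEM43, a membrane protein of the envelope, was at 114, 122, 138 and 131 CPM against 47.8, 45.8, 38.9 and 39.97 (log2 1.55 ± 0.11 SE, edgeR adjusted p = 1.84e-08), and LBR, the lamin B receptor that is also a sterol reductase, at 1085, 1292, 1181 and 1031 against 454, 498, 432 and 493 (log2 1.29 ± 0.11 SE, edgeR adjusted p = 1.13e-07). The 3 nuclear lamins were closer to the mixture, with LMNB1 (0.58) and LMNA (0.54) above and LMNB2 (-0.18) not called. BANF1, a small DNA-binding protein, was below at 27.5, 20.04, 25.2 and 31.8 CPM against 39.4, 39.0, 41.4 and 55.7 (log2 -0.76 ± 0.18 SE, edgeR adjusted p = 0.00335). Of 36 tested nuclear pore proteins, 12 were above and 3 below (5 with the block), with a median of 0.12 that turned to -0.06 in the undepleted wash. The 4 largest residuals were those of NUP210, POM121C, NDC1 and POM121, which cross the membrane at the pore. NUP210 stood at 709, 796, 862 and 845 CPM against 219.7, 219, 243 and 236 (log2 1.81 ± 0.11 SE, edgeR adjusted p = 3.21e-09), and POM121C (1.30), NDC1 (0.83) and POM121 (0.74) were above too. The scaffold protein SEH1L was below on the fitted means, 231, 351, 309 and 271 CPM against 441, 444, 349 and 345 (log2 -0.44 ± 0.15 SE, edgeR adjusted p = 0.0273), but the values overlapped, and the residual was -0.37 to -0.39 and not called without wash replicate 1 or 4 or without cytoplasm replicate 1 or 2.

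The largest residual of all tested genes at 10 CPM or more was that of an actin-binding scaffold of the cytosol. DBN1 (ENSG00000113758, chromosome 5, 177456608 to 177474401 of GRCh38) encodes drebrin, which binds actin filaments. It was counted at 699, 316, 346 and 344 CPM in the wash and 45.4, 52.8, 45.9 and 56.4 in the mixture, 8.46-fold on the fitted means (log2 3.08 ± 0.21 SE, edgeR adjusted p = 1.14e-08). Replicate 1 was the highest by far, and even the lowest of the 4 wash values exceeded the highest mixture value. SPTBN1 (chromosome 2, 54456285 to 54671445 of GRCh38), a beta spectrin, was at 1197, 785, 886 and 821 CPM against 128, 132, 139 and 148 (log2 2.75 ± 0.16 SE, edgeR adjusted p = 2.43e-09), and IQGAP1, a scaffold of actin and calmodulin signalling, at 1020.5, 864, 704 and 637 against 125, 126, 129.8 and 134 (log2 2.65 ± 0.14 SE, edgeR adjusted p = 1.17e-09). DIAPH1, a formin that extends actin filaments, had 3549, 3469.9, 3572 and 3188 CPM against 544, 571, 561.5 and 595 (log2 2.60 ± 0.09 SE, edgeR adjusted p = 1.77e-11). IQGAP1 and DIAPH1 are on none of the lists and are set here because of what they bind. SPTBN1, IQGAP1 and DIAPH1 each had a mean nuclear level above the cytoplasmic one, and the wash lay above both, for example 614 ± 33.1 CPM nuclear against 51.4 ± 13.2 cytoplasmic (SD, n = 4) for SPTBN1. Of 52 tested spectrins, filamins, myosins and other large scaffolds, 30 were above and 2 below, with a median of 0.55. The list was not uniform: SPTAN1 (2.41) and PLEC (2.18) were far above, while DST (0.05), MYO1C (-0.05) and ADD1 (0.07) were not called. From CPM with 0.5 added to wash and mixture, the median of the list was 1.13 in wash replicate 1 and 0.59, 0.39 and 0.49 in replicates 2, 3 and 4. MYO1E, the largest deficit of the list, had only 0.467, 3.54, 2.37 and 1.51 CPM in the wash against 3.96, 5.75, 6.24 and 6.18 (log2 -1.32 ± 0.32 SE, edgeR adjusted p = 0.00383), and was not called within prefix 1 alone, on gene-body counts, or with weights from summed exonic and intronic counts.

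Small proteins of the cytoskeleton were more often below than above. Of 38 tested actins, tubulins and small actin-binding proteins, 1 was above and 14 below, with a median of -0.24. ACTB, the beta actin whose filaments the scaffolds bind, was not called and its values overlapped, with 2767, 2924, 2918 and 2722 CPM in the wash and 2751, 2709, 2524 and 2533 in the mixture (log2 0.11 ± 0.10 SE, edgeR adjusted p = 0.451). ARPC1A, a subunit of the Arp2/3 complex, was below at 38.3, 55.2, 64.9 and 59.2 CPM against 106, 107, 116 and 146 (log2 -1.11 ± 0.17 SE, edgeR adjusted p = 7.00e-05), and its paralogue ARPC1B at 40.1, 47.3, 64.9 and 63.0 against 112, 103, 97.9 and 91.5 (log2 -0.90 ± 0.14 SE, edgeR adjusted p = 9.66e-05). Profilin, PFN1 (-0.72), and the thymosins TMSB4X (-0.75) and TMSB10 (-0.79) were below as well. The 1 member above was vimentin, VIM, an intermediate filament protein that the list held beside the classes named. It was above by 0.36 at 291, 311, 311 and 313 CPM against 216, 223, 268 and 247 (edgeR adjusted p = 0.0207), a call lost without wash replicate 2 (0.32) or cytoplasm replicate 1 (0.32) or 2 (0.33). Among 52 tested centrosome, kinesin and dynein-linked proteins, 18 were above and 7 below, and the median was 0.14. With the block 14 were below, under the Poisson fit 14 were above and 15 below with a median of -0.03, and within prefix 2 the counts were 18 and 18. DYNC1H1, the dynein heavy chain, was at 2336, 2217, 1659 and 1803 CPM against 595, 627, 719 and 713 (log2 1.59 ± 0.21 SE, edgeR adjusted p = 1.52e-05), while the centrosome protein CEP290 was below at 86.8, 73.3, 29.1 and 32.5 against 128, 117, 95.03 and 115 (log2 -1.06 ± 0.28 SE, edgeR adjusted p = 0.00822).

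Nuclear genes for mitochondrial proteins divided by class, in lists of which all but the respiratory chain and the ribosomal proteins were written after residuals had been seen. Some long enzymes of the matrix were among the highest residuals. ALDH18A1, which makes the precursor of proline, stood at 313, 358, 324 and 304 CPM in the wash against 57.1, 60.1, 64.3 and 58.7 (log2 2.43 ± 0.10 SE, edgeR adjusted p = 6.57e-11). The mitochondrial leucyl-tRNA synthetase LARS2 had 186, 186, 184 and 175 CPM against 36.4, 31.7, 34.8 and 37.9 (log2 2.38 ± 0.10 SE, edgeR adjusted p = 6.57e-11), and the isoleucyl enzyme IARS2 952, 1143, 1020.2 and 917 against 190.0, 174, 208 and 209 (log2 2.37 ± 0.12 SE, edgeR adjusted p = 8.11e-10). In all 3 the wash libraries differed little among themselves and lay far over every mixture value. Of 17 tested mitochondrial tRNA synthetases, 8 were above and 2 below, with a median of 0.36. The cytosolic synthetases were close to the mixture, with 2 of 22 above, 0 below and a median of 0.15, or 4 and 1 with the block. Of 51 tested matrix enzymes and chaperones, 17 were above and 5 below, with a median of 0.18. The counts were 21 and 9 with the block, and 13 and 13 with a median of 0.02 with weights from summed exonic and intronic counts. The transhydrogenase NNT, which spans the inner membrane many times, was at 297, 338, 257 and 236 CPM against 84.4, 78.7, 78.8 and 93.9 (log2 1.75 ± 0.14 SE, edgeR adjusted p = 8.39e-08).

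Mitochondrial ribosomal proteins and respiratory chain subunits were more often below. Of 75 tested mitochondrial ribosomal proteins, 0 were above and 35 below, with a median of -0.40. MRPL14 was at 12.1, 7.47, 12.3 and 10.1 CPM against 23.0, 22.7, 17.5 and 20.01 (log2 -1.01 ± 0.21 SE, edgeR adjusted p = 0.00133), but its residual was -0.13 on gene-body counts, not called, and 0.16 in the undepleted wash. Of 75 tested nuclear-encoded subunits of the respiratory chain, 6 were above and 20 below, with a median of -0.27. Their shares were 8% and 26.7%, where 16.5% and 17% of all tested genes were above and below. NDUFA5, a subunit of complex I, was at 162, 208, 153 and 175 CPM against 335, 340.0, 327 and 387 (log2 -0.99 ± 0.12 SE, edgeR adjusted p = 4.45e-06), and UQCR10, of complex III, at 20.5, 15.9, 17.2 and 17.9 against 30.9, 36.2, 30.7 and 41.6 (log2 -0.98 ± 0.15 SE, edgeR adjusted p = 0.000111). Against that trend, COX6A1, with a coding length of only 327 nucleotides, had the largest residual of the list. It was at 28.9, 10.8, 24.6 and 22.4 CPM against 7.45, 7.71, 6.45 and 9.43 (log2 1.45 ± 0.26 SE, edgeR adjusted p = 0.000325), and its span overlaps another gene. SDHA, the flavoprotein of complex II, was above at 1.18. Of 39 tested carriers of the inner membrane in the SLC25 family, 4 were above and 14 below, with a median of -0.27, although these proteins cross the membrane several times. SLC25A39, a glutathione carrier, was at 21.5, 26.1, 29.1 and 29.7 CPM against 51.7, 50.9, 55.4 and 47.4 (log2 -0.93 ± 0.16 SE, edgeR adjusted p = 0.000264).

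Tail-anchored proteins and RAB GTPases, in 2 lists written after residuals had been seen, were more often below than above. Of 43 tested tail-anchored proteins, 0 were above and 15 were below, with a median of -0.40, or 2 and 23 with the block. VTI1B, a SNARE of endosomes, was at 27.5, 31.2, 39.7 and 43.4 CPM against 62.2, 64.7, 77.8 and 73.3 (log2 -0.96 ± 0.16 SE, edgeR adjusted p = 0.000161), and RHOT1, an anchored GTPase of the outer mitochondrial membrane, at 66.7, 74.5, 72.6 and 70.6 against 138, 135, 144 and 133 (log2 -0.95 ± 0.10 SE, edgeR adjusted p = 2.34e-06). RAB GTPases, which reach membranes through lipid groups added after translation, gave 0 above and 15 below of 39 tested, with a median of -0.37. RAB31 was at 50.9, 67.8, 61.2 and 61.7 CPM against 157, 146, 147 and 122 (log2 -1.24 ± 0.14 SE, edgeR adjusted p = 3.09e-06). In these 3 genes every wash value lay under every mixture value.

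**Figure D3:**
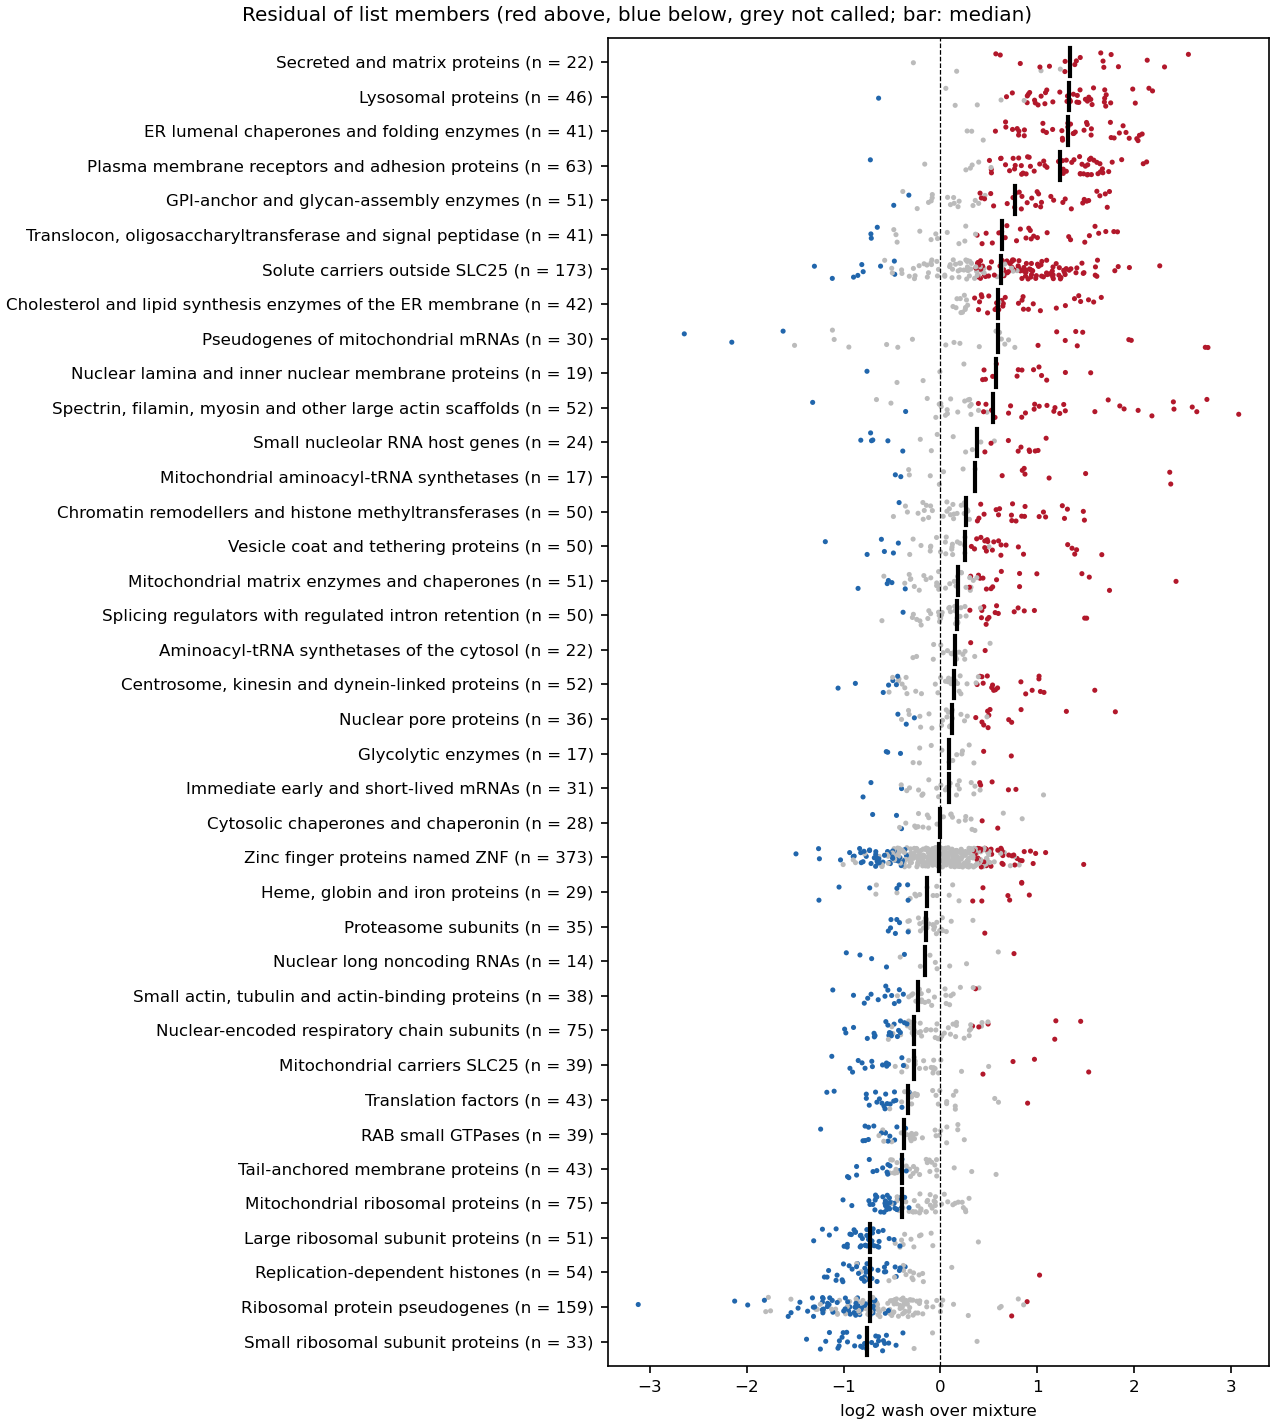
Residual (log2 wash over mixture) of every tested member of the function lists with at least 14 tested members, with the median of each list as a bar. Secreted, lysosomal, ER lumenal and plasma membrane lists have medians of 1.24 to 1.34, ribosomal proteins and histones -0.72 to -0.76, and zinc finger proteins scatter around 0.

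Regulators of chromatin and splicing were more often above than below, for splicing regulators only outside the Poisson fit. Of 50 tested chromatin remodellers and histone methyltransferases, 22 were above and 1 below, with a median of 0.26. With the block 5 were below, within prefix 2 there were 9, and the Poisson fit gave 18 above and 9 below with a median of 0.08. The acetyltransferase EP300 was at 412, 347, 327 and 298 CPM in the wash and 112, 125, 127 and 129 in the mixture (log2 1.49 ± 0.10 SE, edgeR adjusted p = 1.52e-08). CHD4, a helicase of the NuRD complex, was at 1913, 951, 1135 and 1017 CPM against 413, 448, 457 and 484 (log2 1.48 ± 0.16 SE, edgeR adjusted p = 1.84e-06), with replicate 1 well above the other 3. KMT2E, the 1 member below, had a residual of -0.43 but overlapped with the mixture, and it was not called when wash replicate 3 or 4, any cytoplasm library or nucleus replicate 1, 2 or 4 was left out, with residuals of -0.31 to -0.45. Of 50 tested splicing regulators, 16 were above and 1 below (2 with the block), with a median of 0.17. The counts were 6 above and 13 below, with a median of -0.12, under the Poisson fit, and 15 and 9 within prefix 2. The splicing scaffolds SRRM2 and SRRM1 led, with 3247, 2076, 1806 and 1574 CPM against 744, 822, 724 and 763 (log2 1.51 ± 0.15 SE, edgeR adjusted p = 5.25e-07) and 1503, 1029, 715 and 666 against 336, 348, 322 and 386 (log2 1.49 ± 0.17 SE, edgeR adjusted p = 4.21e-06). In both genes the wash values of prefix 1 exceeded those of prefix 2. Zinc finger proteins of the ZNF series, 373 of them tested, gave 39 above and 46 below with a median of -0.01. These shares, 10.5% and 12.3%, were both under those of all tested genes, 16.5% and 17%. The Poisson fit gave 13 and 113, and gene-body counts 68 and 29 of 349.

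Long RNAs known to stay in the nucleus did not follow one rule. MALAT1, a noncoding RNA of nuclear speckles, was at 27313, 19856, 6082 and 5886 CPM in wash replicates 1 to 4 and at 16847, 17574, 12773 and 14133 in the mixture (log2 -0.05 ± 0.33 SE, edgeR adjusted p = 0.922). Both libraries of prefix 1 lay above every mixture value and both of prefix 2 below every one, and within prefix 2 the residual was -0.99 and was called below. NEAT1, the RNA that builds paraspeckles, was above, at 919.7, 995, 896 and 737 CPM against 513, 500.1, 541 and 541 (log2 0.76 ± 0.10 SE, edgeR adjusted p = 2.61e-05), but its residual was 0.12 under the Poisson fit and not called. Of 14 tested nuclear noncoding RNAs, 1 was above and 5 below, with a median of -0.16 that was 0.03 with weights taken from summed exonic and intronic counts. FIRRE, a chromatin-bound RNA, was at 23.3, 20.04, 13.4 and 17.6 CPM against 37.7, 39.7, 33.5 and 32.4 (log2 -0.97 ± 0.19 SE, edgeR adjusted p = 0.000801), and was not called on gene-body counts. Spliced host genes of small nucleolar RNAs were split, with 10 above and 6 below of 24 tested and a median of 0.37 that became -0.03 under the Poisson fit. SNHG10 was at 25.2, 29.1, 30.8 and 31.3 CPM against 17.5, 13.8, 11.5 and 15.8 (log2 1.01 ± 0.15 SE, edgeR adjusted p = 5.42e-05), and SNHG5, another host gene, at 69.5, 60.9, 79.3 and 76.4 against 134, 129.8, 116 and 126 (log2 -0.82 ± 0.11 SE, edgeR adjusted p = 3.31e-05).

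The most uniform deficits among the lists were the messengers of the cytosolic ribosome. Of 51 tested genes of the large subunit, 0 were above (1 with the block) and 39 below, with a median of -0.72, and of 33 of the small subunit 0 were above and 30 below, with a median of -0.76. Their summed levels were 16026 CPM in the wash against 27218 in the mixture for the large subunit and 10711 against 19310.1 for the small one. RPS2 (chromosome 16, 1962052 to 1964860 of GRCh38) was at 537, 498, 545 and 525 CPM in the wash and 1177, 1069, 1490.2 and 1755 in the mixture (log2 -1.38 ± 0.16 SE, edgeR adjusted p = 5.04e-06). RPLP0 (chromosome 12, 120196686 to 120201235 of GRCh38), of the ribosomal stalk, was at 506, 551, 756 and 736 CPM against 1472, 1326, 1612 and 1524 (log2 -1.22 ± 0.15 SE, edgeR adjusted p = 6.42e-06). Both genes had all 4 wash values under all 4 mixture values, yet the wash was still above the nucleus, where RPLP0 averaged 146 ± 20 CPM (SD, n = 4). Only 3 members of the large subunit were lower in the wash, divided by the sum of the weights, than in both fractions. RPS2 and RPLP0 were mostly cytoplasmic, with means of 1681 and 1810 CPM there, and deficits were common among such genes. Of all tested protein-coding genes with a log2 ratio of nucleus to cytoplasm under -3, 81.0% were below, with a median of -0.73. At ratios of -3 to -2, 53.8% were below, with a median of -0.48. The part of this ratio in the ribosomal deficit was not tested. Ribosomal protein genes have many processed copies in the genome, and the handling of reads shared with them is not given in the sources used here. The 159 tested pseudogenes of that kind, a list written after residuals had been seen, gave 2 above and 56 below with a median of -0.73.

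Other products of free ribosomes were nearer to the mixture. Of 43 tested translation factors, 1 was above (2 with the block) and 19 below, with a median of -0.33. TPT1, a small and abundant protein of growing cells, was at 317, 279, 284 and 335 CPM against 567, 565, 753 and 854 (log2 -1.17 ± 0.15 SE, edgeR adjusted p = 1.10e-05), whereas EIF4G1, the large scaffold of the cap-binding complex, was above at 1626, 970.1, 928 and 1090.1 against 627, 668, 585 and 590.0 (log2 0.90 ± 0.15 SE, edgeR adjusted p = 0.000186). Counts assigned to EIF4A1 were below, but were higher in the nucleus than in the cytoplasm, 33.6 ± 5.79 CPM nuclear against 2.69 ± 1.20 cytoplasmic (SD, n = 4), and its span overlaps another gene. Proteasome subunits gave 1 above and 7 below of 35 tested, with a median of -0.15, and the 20% below were close to the 17% of all tested genes. Glycolytic enzymes gave 2 and 3 of 17 with a median of 0.09, and their 17.6% below were also close to that share. Cytosolic chaperones gave 2 and 3 of 28 with a median of 0.00, or 7.14% and 10.7%, both under the shares of all tested genes. Both medians changed sign between settings, and the block gave 5 and 5 of the chaperones. GAPDH was at 1151, 1317, 1294 and 1364 CPM against 1895, 1768, 2135 and 1679 (log2 -0.54 ± 0.11 SE, edgeR adjusted p = 0.00141), while HK2, a hexokinase that binds mitochondria, was above at 198, 177, 218 and 248 against 115, 115, 134 and 143 (log2 0.73 ± 0.12 SE, edgeR adjusted p = 0.000185). Of 31 tested messengers of short life, 5 were above and 3 below, with a median of 0.09, and the 16.1% above were close to the 16.5% of all tested genes. The block gave 7 and 6, and weights from summed exonic and intronic counts 1 and 4 with a median of -0.07. Among them, ODC1, the first enzyme of polyamine synthesis, was at 254, 267, 236 and 252 CPM against 504, 449.7, 408 and 394 (log2 -0.80 ± 0.16 SE, edgeR adjusted p = 0.00126).

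Replication-dependent histones, whose messengers end in a stem-loop in place of a poly(A) tail, gave 1 above and 37 below of 54 tested, with a median of -0.73. H4C3 was at 113, 106, 199 and 279 CPM against 330.0, 315, 594 and 364 (log2 -1.20 ± 0.30 SE, edgeR adjusted p = 0.00565), and H4C4 at 38.3, 24.6, 34.1 and 40.6 against 72.1, 77.1, 62.9 and 94.6 (log2 -1.17 ± 0.18 SE, edgeR adjusted p = 8.23e-05), although H4C4 was called above in the undepleted wash, at 0.66. The copies of each histone are nearly identical, so single histone genes are uncertain. The 1 above was H3C6, at 1.02. Of the small noncoding RNAs, 9 were tested on the list of 7SL, 7SK, Y, RNase P and spliceosomal RNAs, with 0 above and 3 below. RNY1 and RNY3, which bind the Ro protein, were scarce in the wash, 0.933, 1.18, 1.08 and 3.28 CPM and 1.40, 3.34, 5.603 and 10.8 CPM, against 3.28, 3.50, 11.5 and 14.9 and 10.3, 7.22, 40.4 and 36.3 in the mixture (log2 -2.32 ± 0.53 SE, edgeR adjusted p = 0.00264; log2 -2.09 ± 0.53 SE, edgeR adjusted p = 0.0058). The values of RNY3 overlapped, and RNY1 was called above in the undepleted wash, at 2.73.

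Genes of the erythroid programme were found on both sides. Of 29 tested heme, globin and iron genes, 8 were above and 7 below, with a median of -0.14 that was 0.06 in the undepleted wash. Their shares were 27.6% and 24.1%, where 16.5% and 17% of all tested genes were above and below. FTL, the light chain of the iron store ferritin, was at 222, 245, 242 and 289 CPM in the wash and 573, 559, 604 and 646 in the mixture (log2 -1.25 ± 0.12 SE, edgeR adjusted p = 4.66e-07), and the heavy chain FTH1 was below at -1.05. ALAS2, the erythroid enzyme that begins heme synthesis, was above at 63.0, 68.4, 106 and 93.0 CPM against 43.0, 37.1, 52.8 and 42.8 (log2 0.92 ± 0.17 SE, edgeR adjusted p = 0.000619). HBG1, a fetal globin, was below at 86.3, 80.9, 83.2 and 66.3 against 134, 138, 103 and 149.5 (log2 -0.73 ± 0.13 SE, edgeR adjusted p = 0.000494), but at 0.73 on gene-body counts and 0.061 in the undepleted wash, and it shares nearly all of its sequence with HBG2, which was not called at -0.45. The transcription factor GATA1 was not called and its values overlapped, with 108, 115, 130.0 and 136 CPM against 145, 149.7, 136 and 106 (log2 -0.13 ± 0.13 SE, edgeR adjusted p = 0.455), although it was called below within prefix 1 alone (-0.36). The defining markers of the line were present in every fraction, and the summed CPM of 10 of them ran from 4559 to 5572 in the wash, 5466 to 6782 in the cytoplasm and 1880.4 to 2257 in the nucleus. Markers of other cell types were in lists of 6 lymphoid and myeloid, 4 epithelial and 5 fibroblast and endothelial genes, most with too few counts to be tested. The 6 that were tested were all above: LYZ, PTPRC, EPCAM, COL1A2, FN1 and PECAM1, each a secreted or membrane protein. Without the filter on low counts, 2 of 5, 1 of 3 and 4 of 5 on these lists were above and 0 below. The lymphoid and myeloid list summed to 294 to 354 CPM in the wash, 75.0 to 147 in the cytoplasm and 183 to 230.4 in the nucleus, with MS4A1 at 0 throughout. The epithelial list summed to 154 to 229, 58.0 to 80.5 and 45.1 to 71.5, with KRT14 at 0 throughout. KRT5 was at 0 in cytoplasm and nucleus, and CDH1 at 0 in the cytoplasm. The fibroblast and endothelial list summed to 136 to 178, 28.4 to 43.9 and 75.1 to 84.8. The part of other cells in these levels was not tested.

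The largest residuals among genes with at least 10 CPM, whose wash and mixture values did not overlap, included some genes not yet described. The pair MTND5P11 and MTND6P4 are adjacent processed pseudogenes on chromosome 5 (134924648 to 134926459 and 134924123 to 134924644) that copy mitochondrial genes. MTND5P11 was at 66.7, 56.2, 65.5 and 151 CPM against 8.64, 13.0, 15.3 and 12.6 (log2 2.76 ± 0.25 SE, edgeR adjusted p = 2.62e-07), and MTND6P4 at 46.2, 24.4, 28.02 and 56.0 against 3.64, 4.70, 6.74 and 7.55 (log2 2.74 ± 0.26 SE, edgeR adjusted p = 4.66e-07). Reads of the mitochondrial originals may have been counted there, and the mitochondrial and ribosomal share of the libraries, given above, was lowest in the nucleus; its part in these residuals was not tested. Among the 30 tested pseudogenes of mitochondrial messengers, 10 were above and 3 below (1 with the block), and 7 were below under the Poisson fit. The 8 largest deficits chosen in this way had few reads, with a mean of 17.8 to 45.8 exon counts per wash library in all but RPS2. FRMD5, PGGHG, AC245060.5 and AC009951.1 were mostly nuclear, for example 85.6 ± 8.39 CPM nuclear against 0.855 ± 0.201 cytoplasmic (SD, n = 4) for FRMD5. FRMD5 was at 6.07, 7.27, 3.66 and 3.28 CPM in the wash against 12.3, 13.3, 15.3 and 15.05 (log2 -1.47 ± 0.20 SE, edgeR adjusted p = 3.24e-05), and PGGHG at 5.13, 3.73, 5.82 and 7.31 against 16.1, 15.4, 17.6 and 14.6 (log2 -1.54 ± 0.20 SE, edgeR adjusted p = 1.90e-05). CIB2, RPL13P12 and AP001324.1 were mostly cytoplasmic, for example 2.33 ± 0.283 CPM nuclear against 40.7 ± 5.84 cytoplasmic (SD, n = 4) for the pseudogene AP001324.1, which stood at 8.40, 9.43, 14.9 and 12.1 CPM in the wash against 32.2, 27.3, 35.0 and 38.3 (log2 -1.54 ± 0.17 SE, edgeR adjusted p = 3.06e-06). In all 8 the wash values lay under the mixture values.

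A pair of features of the encoded protein, neither of which entered the fit, went with the side on which a gene fell. Hydrophobic stretches, counted as separate runs of 19-residue windows with a mean Kyte-Doolittle hydropathy of at least 1.6, are a rough stand-in for signal peptides and membrane spans. The secreted THBS1 and FN1 and the tail-anchored RHOT1 had 0 stretches, while the ribosomal protein RPS2 had 1. They were counted in the longest coding sequence of each gene in GENCODE 29. Of 11042 tested protein-coding genes, 18.9% were above and 18.9% below. Among the 7584 without a stretch, 10.9% were above and 23.2% below. Among the 3458 with at least 1, the shares were 36.5% and 9.54%, and among the 735 with at least 4 they were 50.9% and 3.95%. Of the genes above, 60.5% had a stretch, of those not called 27.2% and of those below 15.8%. Genes share pathways and are not independent, so these shares are given as descriptions with no test.

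Coding length sorted the genes as well. From genes under 600 nucleotides to genes of 4800 and over, the share above went through 6.35%, 13.6%, 19.9%, 27.8% and 41.0%, and the share below through 38.8%, 24.5%, 13.8%, 10.3% and 6.99%. The limits between the bins were 600, 1200, 2400 and 4800 nucleotides. The share above changed most with length where no hydrophobic stretch was found, from 2.86% in the shortest bin to 44.8% in the longest. With a stretch, it was 18.2%, 32.9%, 41.6%, 40% and 37.0% from the shortest bin to the longest. The share below went down with length in both groups, from 44.7% to 10.4% without a stretch and from 18.9% to 3.40% with one. In the undepleted wash, described below, the share above with a stretch was 16.8% in the shortest bin and 37.9% in the longest. Genes above had a median coding length of 1860 nucleotides, those not called 1449 and those below 975. The ratio of nucleus to cytoplasm moved with length too, with a median log2 of -1.33 in the shortest bin and 0.84 in the longest, and genes far to either side were rarely above. Among protein-coding genes at log2 ratios of 0 to 1, 28.7% were above and 9.70% below. Under -3 the shares were 0% and 81.0%, and at 3 and over 3.36% and 23.5%. Within the range of 0 to 1 the contrast by hydrophobic stretch remained, with 49.0% above among genes with a stretch and 17.3% among those without. The part of this ratio in the relation to length was not tested.

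**Figure D4:**
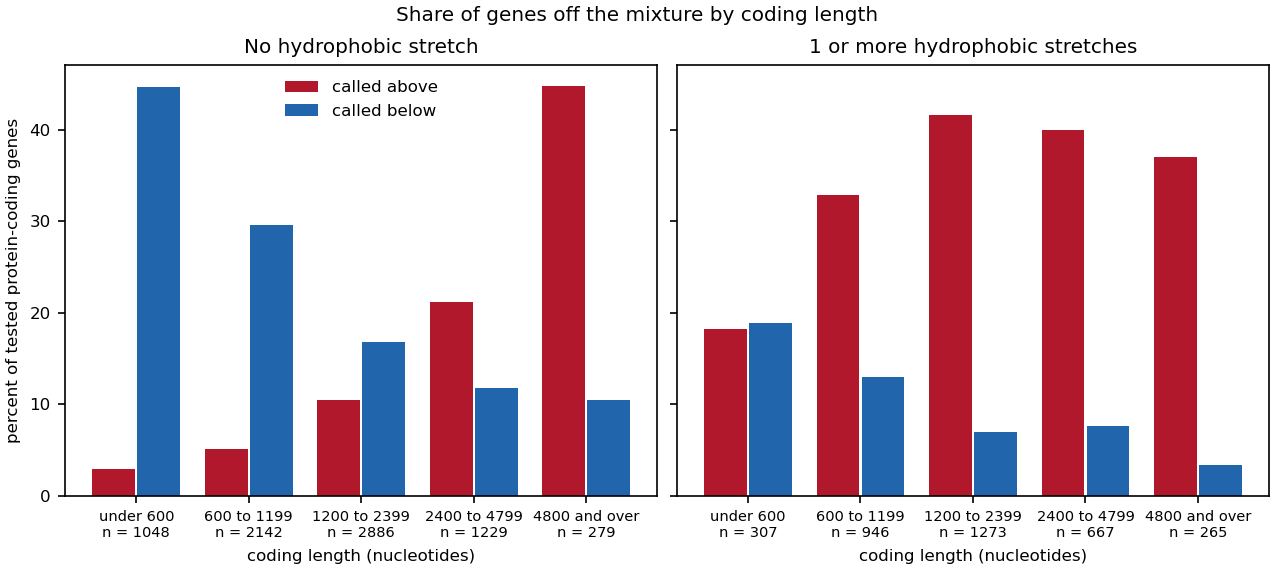
Percent of tested protein-coding genes called above (red) and below (blue) the mixture, by coding length, for genes without a hydrophobic stretch (left) and with at least 1 (right); the number of genes is under each pair of bars. Without a stretch the share above goes from 2.86% to 44.8% with length; with a stretch it is 32.9% or more in every bin but the shortest.

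By annotated type, 14.7% of 1349 tested antisense genes were above and 9.27% below, both under the shares of all tested genes, 16.5% and 17%. Of 1229 pseudogenes 5.37% were above and 15.7% below, and of 561 intergenic long noncoding RNAs 12.1% and 12.8%. Of 76 miscellaneous small RNAs 0 were above, while the 18.4% below were close to the share of all tested genes. Since the strand setting of the counting is not given in the sources used here, reads of antisense and overlapping genes cannot be told apart from those of their partners, and 73.7% of the tested genes overlap another annotated gene.

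The nuclear wash sequenced without rRNA removal gave a further look at the same mixture. Its 3 libraries, 1 of column prefix 1 and 2 of prefix 2, held 572556 to 867410 exon counts of the genes under study. They were set against the same cytoplasm and nucleus libraries, which were depleted, so the preparation of the library differs between wash and mixture here. The values below share their controls with those above and are no independent replication. The fitted nuclear share was 9.46%, and of 13792 tested genes 2544 (18.4%) were above and 2217 (16.1%) below. The secretory lists had medians of 1.43 for ER lumenal proteins, 1.26 for lysosomal proteins, 1.12 for plasma membrane receptors and 1.55 for secreted proteins. Large actin scaffolds had a median of 1.11 and 33 of 47 above, and DBN1 a residual of 4.5. Calreticulin's residual was 2.05 and that of HSPA5 2.04. The lists of short abundant messengers had medians nearer to 0, with -0.09 for the large ribosomal subunit (11 above and 18 below of 51), -0.48 for the small one and -0.10 for histones (9 and 9 of 52). Respiratory chain subunits had a median of 0.24, with 27 above and 10 below of 74, where the depleted wash had -0.27. RAB GTPases, SLC25 carriers and tail-anchored proteins stayed below 0, at -0.48, -0.42 and -0.33. Of 13 tested small noncoding RNAs on the list of 7SL, 7SK and Y RNAs, 11 were above, at a median of 3.24. Among the genes with values in every library that are described here as below the mixture, GOLGA4, FIRRE, PGGHG, MYO1E, SLC25A39, UQCR10, VTI1B, RNY3, MRPL14 and HBG1 were not called in the undepleted wash. The same was true of KMT2E, EIF4A1, CIB2 and RPL13P12, and, of the genes above, of NEAT1, VIM and LYZ. Differences between the depleted and undepleted residuals were not tested, since both rest on the same cytoplasm and nucleus libraries. By coding length, the undepleted wash had 13.0% of the shortest genes above and 31.4% below, and 40.7% and 11% of the longest.

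**Figure D5:**
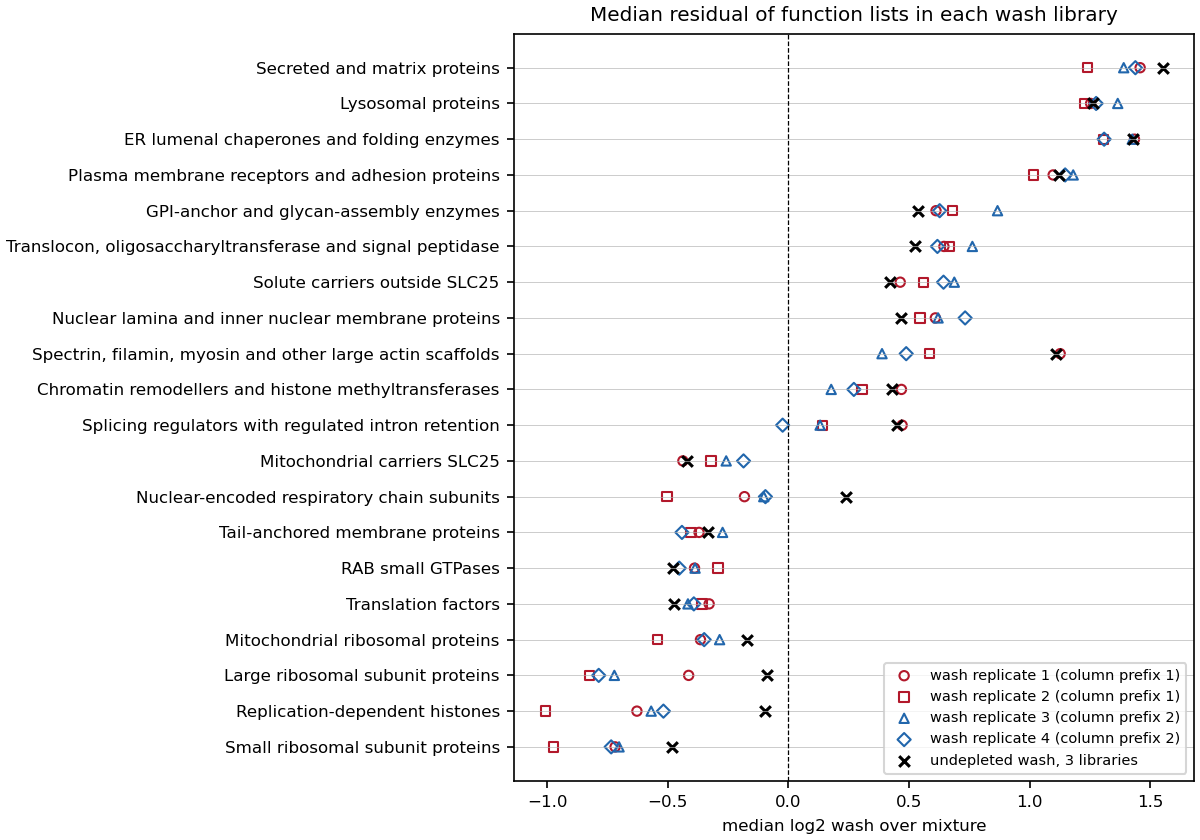
Median log2 wash over mixture of 20 function lists in each of the 4 depleted wash libraries (open symbols, by column prefix) and in the 3 undepleted libraries together (crosses). Open symbols are from CPM with 0.5 added to wash and mixture. Crosses are medians of fitted residuals without that addition, as are the list medians in the text, so the measures differ. The receptor medians run from 1.02 to 1.18 and those of the ER lumen from 1.31 to 1.43, actin scaffolds are highest in replicate 1 and in the undepleted wash, and ribosomal, histone and respiratory chain medians of the undepleted wash lie above those of the 4 depleted libraries.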

How the data were processed

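The authors deposited exon counts per human gene, the unit used throughout, and gene-body counts, used for intronic counts and as an alternative. Per the submitters' processing notes, cutadapt 2.5, STAR 2.7.0a, featureCounts 1.6.2 and the hg38 build were used. No source used here gives the strand setting or the handling of multi-mapped reads. Gene types, spans and coding sequences came from GENCODE 29, in which 57447 of the 58051 gene IDs were found. Libraries were made with a stranded total RNA kit from Trizol LS extracts, per the labels' protocols; the whole-cell libraries and the yeast spike-in were not used here.

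Counts were scaled by TMM with edgeR 4.0.16 in R 4.3.3 after its filter on low counts. The 2 mixture weights were fitted on log2(CPM + 1) of group means. Each gene was tested with edgeR's quasi-likelihood F test against the null that the wash mean equals the mixture, with the weights taken as known, and p-values were adjusted by Benjamini-Hochberg over 15078 genes. The script was tested on simulated data, and at weights of 1 and 0 it gave the p-values of edgeR's own test. An SE is the size of the log2 residual divided by the square root of F. Mixture values per replicate add the weighted CPM of same-numbered libraries.

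Deviations from group means correlated at 0.177 to 0.484 (9663 genes) between same-numbered libraries of different fractions, all over 0.1. The replicate numbers were therefore taken as a possible pairing, and a fit with the replicate as a block was an alternative to the unpaired main test. The same-numbered library was the best match in only 1 case between wash and cytoplasm and 1 between wash and nucleus. Between cytoplasm and nucleus it was the best match in 2 cases, so the pairing is uncertain. Libraries of one fraction differed by more than counting noise, with a chi-square per degree of freedom of at least 1.18.

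The genes under study and the function lists were chosen with earlier results of these data known, and 7 lists (mitochondrial synthetases, matrix enzymes, SLC25 carriers, tail-anchored proteins, RAB GTPases and both pseudogene lists) were added after residuals had been seen. Genes named with all values were the 8 largest residuals in each direction at 10 CPM or more without overlap of wash and mixture values, the 2 largest called members of each list and the 1 largest the other way at 5 CPM or more, and 8 landmarks. Other members named with a residual alone are next in order or illustrate the list and were chosen after their values were seen. No sequences were printed, since the measurements are levels of whole genes. Some genes that the rule names are not reported here.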

Additional observations from a re-analysis of the deposited data

Results flagged for a closer look

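In 3 of the 124 genes with full values, 1 of the 4 wash libraries had a residual far from the other 3, by Dixon's criterion at 95%. Chance alone gives such a value in about 1 in 20 groups. HSPB1, a small heat shock protein, had a residual of -0.91 in replicate 2, where the others lay between -0.32 and -0.26. H4C3, a histone gene, had -0.38 in replicate 4, where the others lay between -1.58 and -1.55. ZNF883, a zinc finger gene, had -2.76 in replicate 4, where the others lay between -0.98 and -0.83.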

How the results depend on the processing

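The nuclear share of the mixture, 16.1%, was 28.9% with a Poisson likelihood, 27.0% on gene-body counts, 8.81% with weights from summed exonic and intronic counts and 9.46% in the undepleted wash. It ran from 14.3% to 18.2% with 1 of the 12 libraries left out. Leaving out a library gave 2219 to 2484 genes above and 1964 to 2565 below. The Poisson fit gave 4841 genes below in place of 2570. Among the 3941 genes that overlap no other gene, 724 were above and 723 below, fewer because fewer were tested. With the replicate block the counts were 2862 and 3130, and the block changed no call of the genes with full values; the list counts that it moved by over 1.5 times stand beside the lists. Libraries of prefix 1 alone gave 2329 above and 2069 below and those of prefix 2 alone 2858 and 2905.

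The 124 genes with full values gave 3622 values over 30 alternatives, of which 3497 kept direction and side of the threshold, 114 lost the call, 3 gained one and 8 reversed. Of the 121 called genes, 78 kept the call in every alternative in which they were tested. A gene left out by an alternative, such as those that overlap another gene, gave no value there. Leaving out 1 library ended the call of 10, among them SEH1L, VIM, KMT2E and HSPB1. HBG1 reversed on gene-body counts (0.73). In the undepleted wash the reversals were PABPN1 (0.51), HSPB1 (1.72), PSMC5 (0.25), HBG1 (0.061), MRPL14 (0.16), H4C4 (0.66) and RNY1 (2.73). The undepleted wash was added after the data had been seen, and the cause of these changes was not tested. Wash depth limits scarce genes: below about 20 exon counts per library, as in MYO1E and RNY1, values carry few reads.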
